A study of Mus musculus with 18 samples.

Results

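The lysosomal enzymes, cathepsins and membrane proteins described here are 38 genes in 4 roles: 14 cathepsins, 11 other hydrolases, 5 genes of lipid transport, cofactors and control, and 8 membrane proteins. They were taken by gene symbol from a deposited table of 28856 transcript clusters, of which 25254 carry a symbol. A transcript cluster is the set of array probes that stands for 1 gene. The symbols of 37 of the 38 genes were in the table, and 33 reached a signal of 100 in at least 1 of 18 arrays. *Ctsc*, *Ctse*, *Ctsg* and *Ctsw* stayed below 100 in every array, with signals of 27.1 to 82.8. *Tfeb*, a transcription factor that switches on lysosomal genes, is in the table only under an older symbol and was not counted, with signals of 57.7 to 94.8.

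Lysosomes are acid compartments in which hydrolases break down proteins, glycans and lipids that arrive by endocytosis and autophagy. Cathepsins are their proteases, saposins and the NPC proteins help to digest and export lipids, and heavily glycosylated proteins such as LAMP1 and LAMP2 line the membrane. Podocytes are long-lived cells with high endocytic and autophagic traffic, and several inherited lysosomal disorders, Fabry disease among them, damage the glomerulus. Cathepsin L has been described to cut podocyte proteins, among them CD2AP, in experimental proteinuria.

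The arrays profiled the podocytes, the mesangial cells and the endothelial cells that GFP fluorescence sorted from sieved and dissociated glomeruli of mice at 5 weeks of age. The genotypes were *Cd2ap*-/- and wildtype, with 3 arrays in each of the 6 groups. CD2AP is an adapter protein of the podocyte slit diaphragm, and the mutant allele was *Cd2ap* tm1Shaw. Each cell type was sorted by a reporter of its own, *Meis1-GFP* for mesangial cells and *Tie2-GFP* for endothelial cells among them. A sort therefore gathers every GFP positive cell of the glomerular preparation, and in such bulk samples fewer cells of a type and less RNA per cell cannot be told apart. The column names mark the mesangial controls with a plus and a minus sign, while the sample labels call them wildtype, and the labels were followed here. The controls of the other cell types carry a pair of plus signs, so the mesangial controls may be *Cd2ap* heterozygotes, which the labels do not settle. Every comparison below that uses wildtype mesangial arrays, the interactions among them, rests on that label. The series describes the arrays as biological triplicates.

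Each cell type showed its defining markers. *Nphs1*, which encodes nephrin, was 1034 to 1298 in podocyte arrays, and *Itga8* was 1886 to 3126 in mesangial arrays. *Cdh5* was 2186 to 3043 in endothelial arrays. Within a group, Pearson's r across transcript clusters ran from 0.967 to 0.992. Mutant podocyte arrays were the least alike, at 0.967 to 0.971, and the lowest value in the other groups was 0.980. Mesangial wildtype array C stood apart, with *Nphs1* at 168 against 58.2 and 55.6 in the other wildtype arrays of that cell type, and *Cdh5* at 1111 against 99.0 and 121. It also held tubule, leukocyte and erythroid markers. *Cd2ap* itself had signals of 797 to 870 in mutant and 922 to 1123 in wildtype mesangial arrays, and of 1478 to 1512 and 1546 to 2108 in podocytes. In endothelial arrays labelled mutant it was not lower, at 891 to 966 against 757 to 859. None of these 3 differences passed adjustment in limma, with adjusted p values of 0.151 to 0.504. The genotype therefore rests on the sample labels and column names in all 3 cell types. In endothelial cells the *Cd2ap* signal did not even go in the direction of the other cell types.

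Many lysosomal genes carry the E-box CACGTG near their start sites, and the longer palindrome TCACGTGA within the CLEAR element is known as the site that TFEB and its relatives bind. Windows of 300 bases, 250 before and 50 after the start, came from RefSeq on GRCm38.p6 and were found for 30 of the 38 genes. *Ctsa*, *Cln3*, *Ctsd*, *Mcoln1* and *Gla* held TCACGTGA, which is 16.7% of the 30, against 1.12% of 27025 genes with a window and 2.28% of the 7623 genes that also reached a signal of 100. CACGTG, which is part of every TCACGTGA, was found in 11 genes, or 36.7%, against 8.09% and 11.4%. The other 6 genes were *Ctsf*, *Ctsl*, *Glb1*, *Naglu*, *Gaa* and *Lamp1*. Some genes had windows at more than 1 start, and a gene was counted if any of its windows matched. *Ctsa* and *Cln3* each had a further window without either motif, and their stretches below come from the window that matched. Both motifs read the same on either strand, and both were chosen after the expression values were known. A match describes the letters of the window and is no measured binding site. For 7 genes 1 stretch each is shown 5′ to 3′ on the strand of the gene, from bases before the start only, with CACGTG or, where complete, TCACGTGA in capitals. Further CACGTG matches of these genes, which begin at -245 in *Ctsd* and -149 in *Cln3* and after the start in *Ctsa*, lie outside the stretches. *Lamp1* is shown for its 4 matches within 70 bases, at chr8:13159091-13159160 on the plus strand, and *Ctsl*, at chr13:64370721-64370770 on the minus strand, as a cathepsin the results turn on. The others are the genes with the longer palindrome: *Mcoln1* at chr8:3500439-3500498 on the plus strand, *Ctsd* at chr7:142387898-142387947 and *Cln3* at chr7:126583342-126583371 on the minus strand, *Ctsa* at chr2:164833743-164833772 on the plus strand and *Gla* at chrX:134601181-134601240 on the minus strand.
Lamp1: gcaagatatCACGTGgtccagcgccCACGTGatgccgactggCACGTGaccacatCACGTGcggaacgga
Mcoln1: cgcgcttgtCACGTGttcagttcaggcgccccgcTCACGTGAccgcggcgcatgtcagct
Ctsd: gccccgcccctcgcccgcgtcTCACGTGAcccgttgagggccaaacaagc
Cln3: ctcacgggtactgTCACGTGAcccccaacc
Ctsa: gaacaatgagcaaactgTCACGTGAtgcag
Gla: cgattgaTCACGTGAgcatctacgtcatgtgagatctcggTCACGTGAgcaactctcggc
Ctsl: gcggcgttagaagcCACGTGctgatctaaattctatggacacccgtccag

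The ratio of the highest to the lowest of the 6 group means, taken as means of log2 signals and given as a fold, was 1.17-fold to 2.07-fold for the 5 genes with the longer palindrome. Their median was 1.45-fold, that of *Gla*, against 1.4996-fold over all 13523 transcript clusters that reached 100, and *Ctsd* had the widest ratio of the 5. For the 11 genes with CACGTG the ratio was 1.11-fold to 2.56-fold, the widest that of *Ctsl*, with a median of 1.45-fold. Among the 5 members with a ratio over 4-fold, *Cd63*, *Ctsk* and *Ctss* had a window without CACGTG, and *Glb1l2* and *Ctsh* had no window. Most windows lack CACGTG, which was found in 36.7% of the 30 members with a window and 11.4% of the 7623 genes.

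Across the 6 groups the lysosomal genes had ranges like those of all transcript clusters, with a median ratio of 1.53-fold against 1.4996-fold. The highest group mean was under 1.5-fold the lowest in 15 of 33 members and under 2-fold in 23. These are 45.5% and 69.7%, below the 50.04% and 75.9% of all. A ratio over 4-fold was found in 5 members, or 15.2%, against 7.46% of all. They were *Cd63* with 22.8-fold, *Glb1l2* with 14.7-fold, *Ctsk* with 5.96-fold, *Ctss* with 4.51-fold and *Ctsh* with 4.26-fold. The narrowest were *Tpp1*, a tripeptidyl peptidase, with 1.11-fold and *Ctsf* with 1.11-fold.

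**Figure D1:**
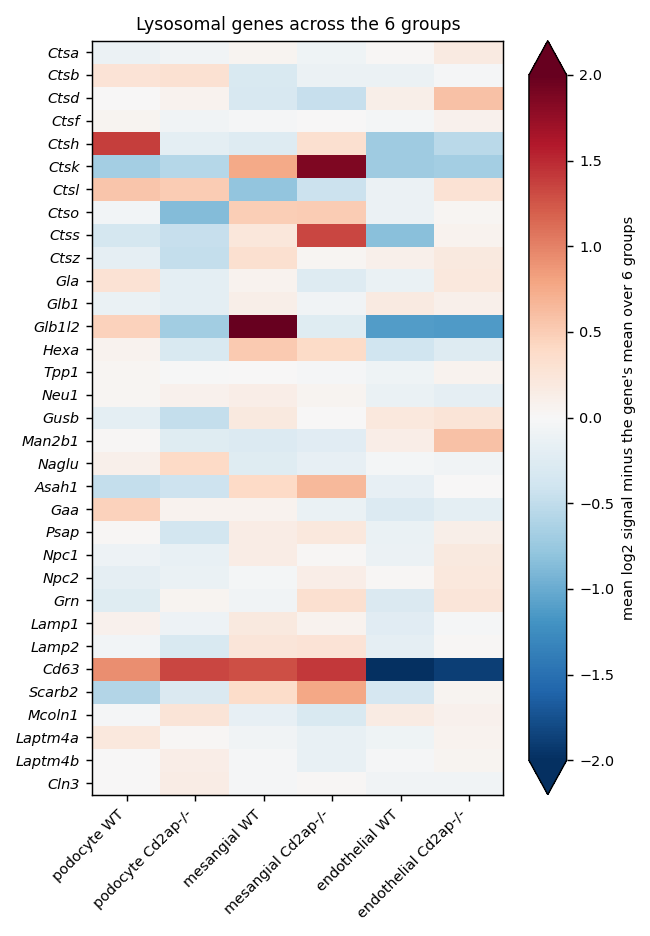
Mean log2 signal of 33 lysosomal genes in the 6 groups (3 arrays each), as the difference from each gene's mean over the groups, with the colour scale ending at -2 and 2. Cd63 was lowest in both endothelial groups, Glb1l2 was highest in wildtype mesangial cells and Ctsk in Cd2ap-/- mesangial cells, and most rows are pale.

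Among the members with a ratio under 2-fold, the membrane proteins were *Lamp1* with signals of 690.5 to 1145 over the 18 arrays, *Lamp2* with 625 to 1209, *Laptm4a* with 2087 to 2882, *Laptm4b* with 210.2 to 367, *Cln3* with 132 to 220.3 and the calcium channel gene *Mcoln1* with 124 to 231. *Psap*, the precursor of the saposins that present lipids to hydrolases, ranged from 276 to 603. The cholesterol exporters *Npc1* and *Npc2* ranged from 142 to 254 and from 306 to 509. Of the hydrolases, *Glb1*, the lysosomal beta-galactosidase, ranged from 84.4 to 144, and *Gla*, the alpha-galactosidase A that is deficient in Fabry disease, from 99.5 to 197. *Neu1*, the sialidase that works in a complex with both *Glb1* and *Ctsa*, ranged from 67.7 to 109. *Ctsa* itself, the protective protein of that complex, ranged from 172 to 272. The cysteine cathepsin *Ctsf* ranged from 104 to 134 and the carboxypeptidase *Ctsz* from 141 to 297. *Naglu*, an enzyme of heparan sulfate breakdown, reached 102 in 1 array. Probe signals differ in efficiency from gene to gene, so these ranges do not rank the genes.

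The first comparison was between cell types in wildtype mice, in which 31 members were tested and *Naglu* and *Neu1* stayed below 100. Podocytes had more *Ctsl* and *Ctsh* than either other cell type. Mesangial cells had the most *Glb1l2* and *Ctsk*, and endothelial cells had the least *Cd63*. Calls used a Benjamini-Hochberg adjusted p under 0.05 over all transcript clusters and a fold change over 1.5. Against mesangial cells, podocytes were higher in 3 members, *Ctsl*, *Ctsh* and *Ctsb*, or 9.68% of 31 against 5.9% of 12537 transcript clusters. They were lower in 4, *Glb1l2*, *Ctsk*, *Scarb2* and *Asah1*, or 12.9% against 9.24%. Against endothelial cells, podocytes were higher in 5, *Cd63*, *Ctsh*, *Glb1l2*, *Gaa* and *Ctsl*, or 16.1% against 9.83%. They were lower in 0 members, against 11.6% of all. Mesangial cells were higher than endothelial cells in 6, *Cd63*, *Glb1l2*, *Ctsk*, *Hexa*, *Scarb2* and *Ctso*, or 19.4% against 9.58%. They were lower in 1, *Ctsl*, or 3.23% against 7.91%.

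*Ctsl* had signals of 1574, 1626 and 1834 in wildtype podocytes, 571, 534 and 922 in mesangial cells and 1142, 941 and 1077 in endothelial cells. The 3 cell types did not overlap, with podocytes highest and mesangial cells lowest. The highest mesangial value was in array C, the one with podocyte markers. The log2 difference of podocytes was 1.35 (SE 0.19, adjusted p = 0.000604) from mesangial cells and 0.67 (SE 0.19, adjusted p = 0.0184) from endothelial cells, both from limma over the 9 wildtype arrays. The call against endothelial cells was lost without endothelial array B or podocyte array C, with adjusted p values up to 0.0671. Mesangial cells differed from endothelial cells by -0.68 (SE 0.19, adjusted p = 0.0216), a call lost without endothelial array A or C or mesangial array A or B. *Ctsh*, an aminopeptidase, had signals of 318, 216 and 217 in wildtype podocytes. In mesangial cells it was 63.3, 62.9 and 123, again highest in array C, and in endothelial cells it was 56.5 to 58.9. Podocytes lay above all other wildtype arrays, by 1.64 (SE 0.25, adjusted p = 0.00106) over mesangial and 2.09 (SE 0.25, adjusted p = 0.000165) over endothelial cells on the log2 scale.

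*Ctsk*, the collagen-degrading cathepsin best known from osteoclasts, was 138, 119 and 105 in wildtype mesangial cells. It was 37.3 to 48.9 in podocytes and 42.2 to 45.9 in endothelial cells. Only mesangial arrays passed the signal of 100, and the log2 difference of podocytes from mesangial cells was -1.43 (SE 0.14, adjusted p = 6.01e-05). The podocyte and endothelial signals lay below the median signal of every array, 62.8 to 71.6. The table has no detection calls, so the size of a difference from such a signal is that of the deposited values only, for *Ctsk* as for *Ctsh* and *Glb1l2* in endothelial cells. *Ctso* was 458, 423 and 409 in mesangial cells, 354, 285 and 251 in podocytes and 267, 300 and 276 in endothelial cells. Mesangial cells were above the others, by 0.61 on the log2 scale over endothelial cells (SE 0.13, adjusted p = 0.00493), while podocytes and endothelial cells overlapped. That difference fell under 1.5-fold without endothelial array A, without mesangial array A and after a repeat of quantile normalization. *Ctsb* was higher in podocytes than in mesangial cells by 0.59 (SE 0.14, adjusted p = 0.0141), just over the 1.5-fold threshold, and fell under it without mesangial array A or B, without podocyte array A and with array medians subtracted. Both of its transcript clusters are shared with *Fdft1*, an enzyme of sterol synthesis, so the values may hold probes of either gene.

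*Glb1l2*, which encodes a relative of beta-galactosidase whose own substrate is not well known, was far higher in mesangial cells than in the other cell types. Its signals were 599, 915 and 968 in wildtype mesangial cells, 199, 199 and 118 in podocytes and 55.5, 52.7 and 58.9 in endothelial cells. The order was complete, with no overlap between cell types. The log2 difference of mesangial from endothelial cells was 3.86 (SE 0.23, adjusted p = 1.85e-06), and that of podocytes from mesangial cells was -2.28 (SE 0.23, adjusted p = 8.44e-05). Of the mesangial markers, *Itga8* was 1153, 1152 and 869 in the podocyte arrays with 199, 199 and 118, and 61.3 to 96.4 in the endothelial arrays. The sum of 10 mesangial markers was 12571 to 13472 in wildtype mesangial cells, 4591 to 5524 in podocytes and 2933 to 3055 in endothelial cells. In those endothelial arrays 3 of the 10 were at 100 or more. The part of mesangial RNA in the podocyte signal was not tested. *Asah1*, acid ceramidase, was 401 to 450.4 in mesangial cells against 196 to 284 in podocytes, a log2 difference of podocytes of -0.87 (SE 0.17, adjusted p = 0.00464). *Hexa*, a subunit of beta-hexosaminidase, was higher in mesangial than endothelial cells by 0.92 (SE 0.14, adjusted p = 0.000724). *Gaa*, acid alpha-glucosidase, was higher in podocytes than endothelial cells by 0.73 (SE 0.16, adjusted p = 0.00587), at 98.0 to 132 against 59.5 to 76.9.

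*Cd63*, a tetraspanin of late endosomes and lysosomes, was 2542, 2449 and 2624 in wildtype mesangial cells and 1787, 2064 and 2142 in podocytes. In endothelial cells it was 212, 107 and 80.1, and no endothelial array came near the others. Mesangial cells exceeded endothelial cells by 4.38 on the log2 scale (SE 0.28, adjusted p = 3.38e-06) and podocytes did so by 4.03 (SE 0.28, adjusted p = 6.63e-06). The podocyte and mesangial groups did not overlap, but their difference of -0.35 (SE 0.28, adjusted p = 0.388) was not called. *Scarb2* encodes LIMP-2, the receptor that carries beta-glucocerebrosidase to the lysosome, and its loss in people affects the glomerulus. It was 575, 921 and 542 in mesangial cells, 376.7, 364 and 284 in podocytes and 439, 372 and 403 in endothelial cells. Mesangial cells were highest, with a log2 difference of podocytes from them of -0.96 (SE 0.20, adjusted p = 0.00571) and of them from endothelial cells of 0.71 (SE 0.20, adjusted p = 0.0214). The latter was 0.47 without mesangial array B, the one with 921, and its call was lost there and without endothelial array B or C, with adjusted p values up to 0.0715.

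**Figure D2:**
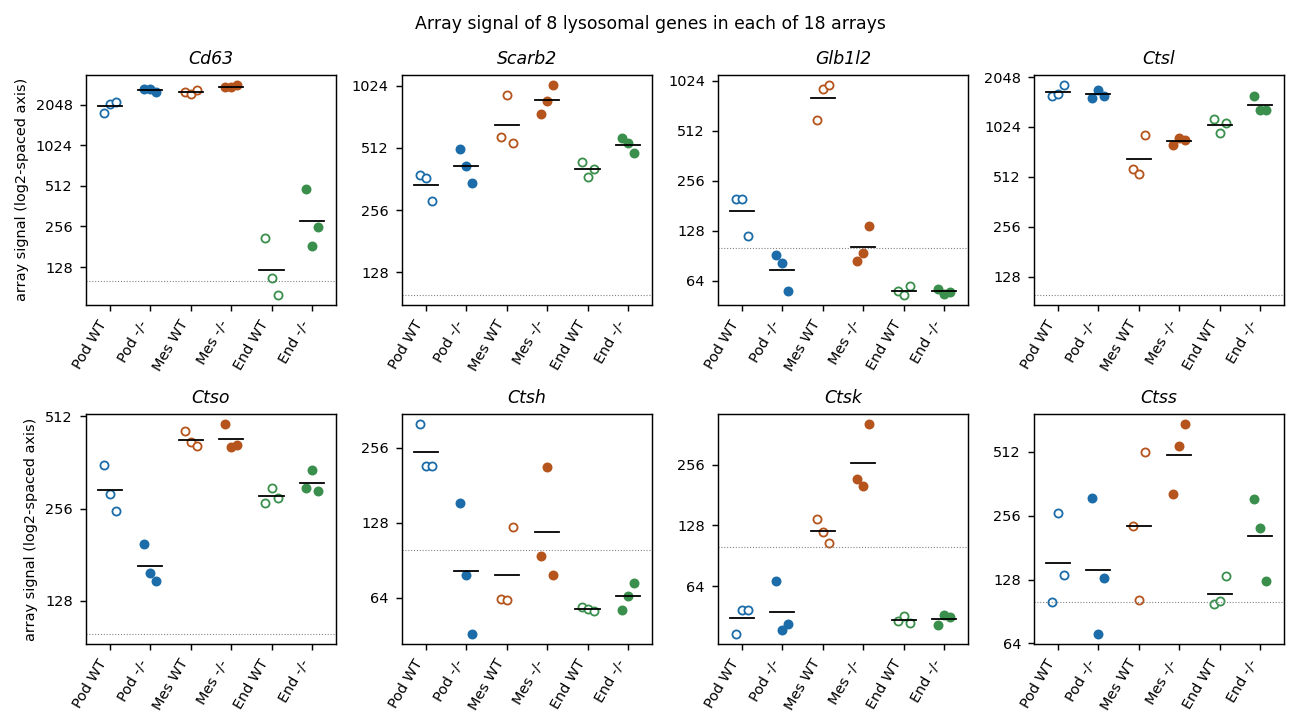
Array signal of 8 lysosomal genes on a log2-spaced axis in podocytes (Pod), mesangial cells (Mes) and endothelial cells (End), wildtype (open) and Cd2ap-/- (filled). Each point is 1 array, the line is the geometric mean of 3 arrays and the dotted line is a signal of 100. Wildtype mesangial Glb1l2 lay at 599 to 968 and that of Cd2ap-/- mesangial cells at 83.8 to 136, while Ctsl in podocytes had overlapping ranges in the 2 genotypes.

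The second comparison was between genotypes within each cell type. In podocytes, *Ctsh*, *Glb1l2* and *Ctso* were lower in *Cd2ap*-/- mice and 0 members were higher by the screen, which asks for more than 1.5-fold at an unadjusted p under 0.05. *Ctsl*, a cathepsin often studied in podocyte injury, was not called and its groups overlapped. The 3 lower members are 9.38% of the 32 tested, against 4.34% of 12113 transcript clusters, and higher calls made up 1.26% of all. At an adjusted p under 0.05 in limma 0 members were called, against 0.0578% of all, and 6 members had an unadjusted p under 0.05, or 18.8% against 14.3%. The 3 beyond the screened ones were *Cd63* and *Grn*, both higher, and *Gusb*, lower, each by under 1.5-fold.

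*Ctsh* was 154, 78.7 and 45.9 in mutant podocytes against the 318, 216 and 217 of wildtype. All mutant arrays lay below all wildtype arrays, with array A between the other mutants and the controls. The log2 difference was -1.58 (SE 0.40, adjusted p = 0.183). *Glb1l2* was 90.8, 81.6 and 55.6 in mutant podocytes against 199, 199 and 118, and again the groups did not overlap. Its log2 difference was -1.17 (SE 0.26, adjusted p = 0.156). The lowest mutant values of *Ctsh* and *Glb1l2*, 45.9 and 55.6, lay below the median signal of every array, 62.8 to 71.6. The size of both differences is therefore that of the deposited values only. *Ctso* was 195, 158 and 148 in mutants against 354, 285 and 251. The lowest wildtype array lay above the highest mutant one, and the log2 difference was -0.82 (SE 0.18, adjusted p = 0.143). *Ctsl* was 1537, 1719 and 1581 in mutants against 1574, 1626 and 1834, a log2 difference of -0.06 (SE 0.12, adjusted p = 0.867), with the groups overlapping.

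Markers of other cells moved with these 3 differences in podocytes. The summed signal of 10 mesangial markers was 1661 to 4714 in mutant and 4591 to 5524 in wildtype podocytes, and that of 11 endothelial markers was 963 to 2954 against 4687 to 6264. Defining markers of both were lower as well, with *Itga8* at 134 to 724 against 869 to 1153 and *Cdh5* at 123 to 391 against 696 to 929. The sum of 15 leukocyte markers was 958 to 1343 against 1293 to 1579, and that of 6 juxtaglomerular and smooth muscle markers was higher in mutants, at 1133 to 3190 against 871 to 906. The 11 podocyte markers summed to 15279 to 18625 in mutants and 17458 to 19524 in wildtype, with 11 of 11 at 100 or more in every array. For *Glb1l2* and *Ctso*, wildtype mesangial cells had higher signals than podocytes, and their part in the lower signals was not tested. For *Ctsh*, wildtype mesangial and endothelial arrays were at 56.5 to 123, below the 216 to 318 of wildtype podocytes. The part of these cells and of leukocytes in the lower *Ctsh* was not tested. Of the 3 mutant arrays, array A had the most *Tyrobp* and *Itga8*, while the sum of 10 mesangial markers was higher in array B, at 4714 against 4215. Without array A the screen called 5 members, with *Hexa* at -0.60 (SE 0.14) and *Gla* at -0.67 (SE 0.17) added, or 15.6% of the members, while calls over all transcript clusters rose from 5.61% to 10.3%. In that fit *Ctsh* was -2.03 (SE 0.28, adjusted p = 0.0288) and *Ctso* was -0.94 (SE 0.17, adjusted p = 0.0469).

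In mesangial cells, *Glb1l2* was lower and *Ctsk* was higher in *Cd2ap*-/- mice, and 29 of 31 tested members did not pass the screen. *Glb1l2* was 83.8, 94.04 and 136 in mutants against 599, 915 and 968 in wildtype, so the lowest wildtype array was several times the highest mutant one. The fold change was 7.91, with a log2 difference of -2.98 (SE 0.24, adjusted p = 0.00465). *Ctsk* was 217, 201 and 405 in mutants against 138, 119 and 105, without overlap, and mutant array C was the highest. The log2 difference was 1.12 (SE 0.27, adjusted p = 0.0818). The lower and the higher call are 3.23% of the members each, against 3.12% and 2.08% of 11457 transcript clusters. At an adjusted p under 0.05 the count was 1, *Glb1l2*, or 3.23% against 2.92%, and at an unadjusted p under 0.05 it was 4, or 12.9% against 21.7%. For *Ctsb* the 2 transcript clusters, both shared with *Fdft1*, went in opposite directions. The cluster used had a log2 difference of 0.19 in limma (adjusted p = 0.545). The other had -0.71 (adjusted p = 0.0781) and would pass the screen.

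The other mesangial values were less even. *Ctss* was 324, 544 and 688 in mutants against 228, 102 and 509 in wildtype, with wildtype array C among the mutants, and its log2 difference of 1.12 (SE 0.57, adjusted p = 0.315) was not called. *Ctsh* was 94.5, 215 and 78.8 against 63.3, 62.9 and 123, and the array with 215 was also the one with *Tyrobp* at 1261 and *Ptprc* at 361. *Ctsl* was 795, 879 and 855 in mutants against 571, 534 and 922, a log2 difference of 0.36 (SE 0.21, adjusted p = 0.362). Without wildtype array C, which stood apart, the screen called 4 members in place of 2, or 12.9% against 6.45%, where calls over all transcript clusters were 5.33% and 5.19%. *Ctsl* was then 0.61 (SE 0.10, adjusted p = 0.0376), *Ctss* 1.70 (SE 0.42, adjusted p = 0.109), *Ctsk* 1.02 (SE 0.30) and *Glb1l2* -2.85 (SE 0.26, adjusted p = 0.0065). Without wildtype array B, *Scarb2* passed the screen with 0.64 (SE 0.16, adjusted p = 0.162). *Itga8* itself was lower in mutant mesangial cells, at 1886 to 2080 against 2892 to 3126, and 10 mesangial markers summed to 10637 to 11685 against 12571 to 13472. The 6 juxtaglomerular and smooth muscle markers summed to 1761 to 3011 in mutants against 1524 to 1885 in wildtype. By the screen 2 of these 6 were higher and 1 was lower. The part of all these markers in the lower *Glb1l2* and the higher *Ctsk* was not tested.

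In endothelial cells, the arrays labelled mutant had higher *Cd63* and *Ctss* by the screen, and most lysosomal genes lay a little above wildtype. Of 27 tested members 25 had a difference above 0, where 64.9% of 11330 transcript clusters did, and their median log2 difference was 0.18 against 0.07 over all. The 2 higher calls are 7.41% of the members against 2.96% of all, and lower calls were 0 against 0.865%. At an adjusted p under 0.05 in limma 0 members were called, against 1.29% of all, and 10 had an unadjusted p under 0.05, or 37.0% against 18.5%. The 10 were *Cd63*, *Ctsd*, *Ctsl*, *Ctss*, *Gla*, *Grn*, *Lamp2*, *Man2b1*, *Npc1* and *Scarb2*, all higher. The number above 0 was also 25 of 27 after subtraction of array medians, where 77.0% of all lay above 0, and was 20 of 27 after a repeat of quantile normalization, where 48.6% did. The median of the members stayed above that of all transcript clusters, at 0.25 against 0.14 and at 0.11 against a value of -0.00485.

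*Grn*, which encodes progranulin, a secreted protein that is cut to granulins in the lysosome, had the smallest adjusted p of these. It was 528, 539.8 and 597 in endothelial arrays labelled mutant against 432, 368.8 and 360 in wildtype, without overlap, a log2 difference of 0.52 (SE 0.11, adjusted p = 0.0613) at under 1.5-fold. *Ctsd*, the main aspartic protease of the lysosome, was 683, 681 and 627 against 575, 411 and 464, a difference of 0.47 (SE 0.13, adjusted p = 0.139). *Scarb2* was 574, 538 and 484 against 439, 372 and 403, a difference of 0.40 (SE 0.11, adjusted p = 0.128). *Ctsl* was 1568, 1294 and 1303 against 1142, 941 and 1077, a difference of 0.40 (SE 0.12, adjusted p = 0.156). In all 3 the arrays labelled mutant lay above every wildtype array, and none reached the fold change of the screen. Without wildtype array A, *Grn* at 0.60 (SE 0.10, adjusted p = 0.0407) and *Ctsd* at 0.60 (SE 0.10, adjusted p = 0.0424) passed the screen and adjustment, where calls by the screen over all transcript clusters were 4.96% in place of 3.82%. Without array C of those labelled mutant, *Man2b1* passed the screen with 0.67 (SE 0.11, adjusted p = 0.0576).

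The 2 screened members were more scattered. *Cd63* was 488, 183 and 251 in arrays labelled mutant against 212, 107 and 80.1, so the groups overlapped, with a log2 difference of 1.21 (SE 0.43, adjusted p = 0.202). *Ctss*, a cathepsin of antigen-presenting cells, was 305, 224 and 126 against 98.0, 101 and 134, also with overlap, and a difference of 0.90 (SE 0.30, adjusted p = 0.187). Array A was the highest for both, and without it 0 members passed the screen, where calls over all transcript clusters were 3.31%. *Ctss* also lost its call without wildtype array A and in a fit of all 18 arrays, and *Cd63* without wildtype array B or C and with an intensity trend and robust estimation. The leukocyte marker *Tyrobp* was 475, 274 and 151 in the same arrays against 108, 179 and 201, in the order of *Ctss* within the labelled mutants. The sum of 15 leukocyte markers was 958 to 1653 against 843 to 1010, with 3 to 5 of them at 100 or more against 1 or 2, and their part in the result was not tested. Podocytes and mesangial cells were the types with high *Cd63*. Of the podocyte markers, 3 to 4 of 11 were at 100 or more in wildtype endothelial arrays. Of the mesangial markers, 3 of 10 were so there. In the arrays labelled mutant these were 3 to 5 of 11 and 3 of 10. *Podxl* was 1037 to 1250, *Clic5* 993 to 1100 and *Meis2* 1460 to 1826, while *Nphs1* was 52.8 to 56.3 and *Pdgfrb* 51.2 to 55.4. *Mcam*, from the mesangial list, was 775, 672 and 732 against 537, 378 and 532 and passed the screen, with a log2 difference of 0.61 (SE 0.15, adjusted p = 0.107). The 11 podocyte markers summed to 2710 to 2872 against 2556 to 2933 and the 10 mesangial markers to 2751 to 3106 against 2933 to 3055, and their part in the higher *Cd63* was not tested.

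**Figure D3:**
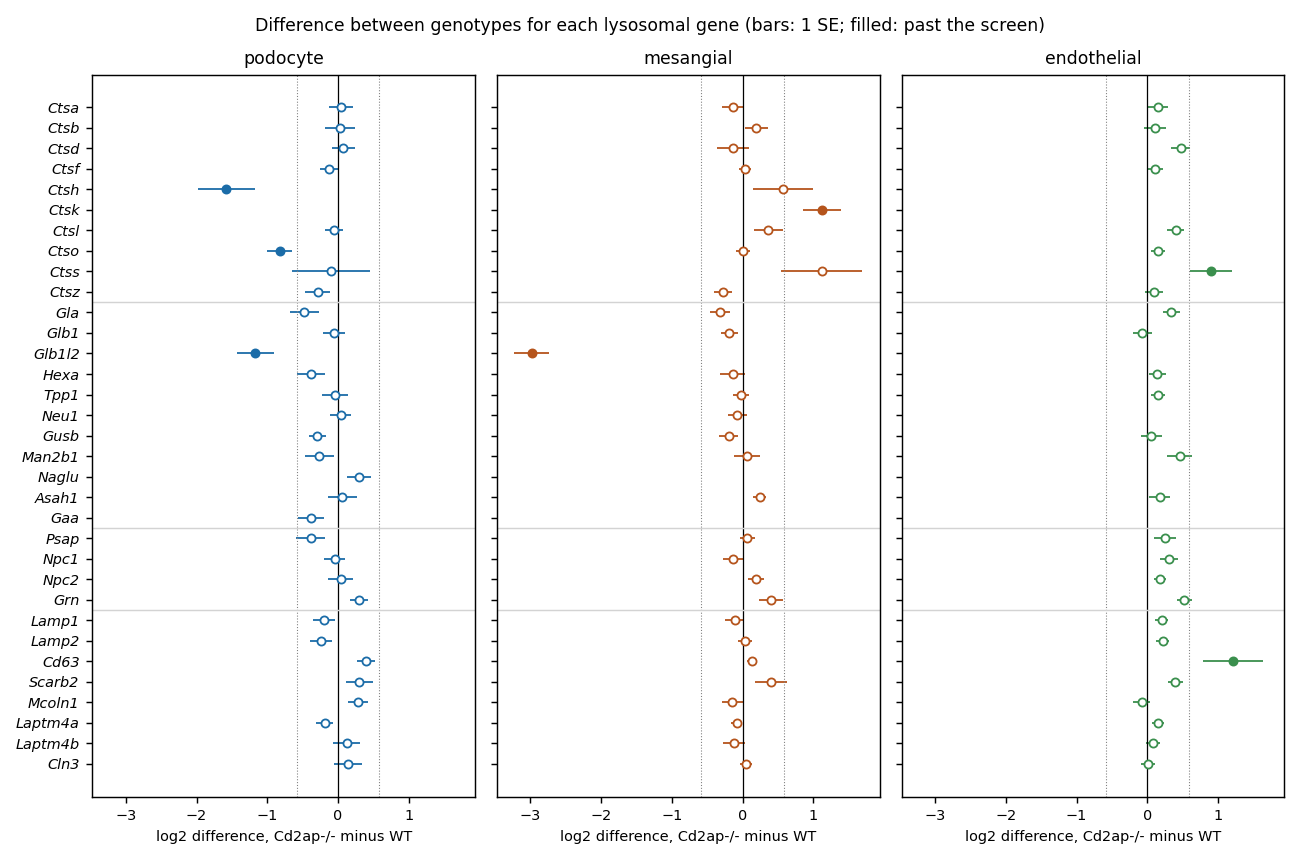
Log2 difference, Cd2ap-/- minus wildtype, of each lysosomal gene tested in podocytes, mesangial cells and endothelial cells (3 arrays against 3), with bars of 1 SE from limma. Filled points passed the screen, dotted lines mark 1.5-fold and grey lines separate the 4 roles. Filled points are Ctsh, Ctso and Glb1l2 in podocytes, Ctsk and Glb1l2 in mesangial cells and Ctss and Cd63 in endothelial cells.

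**Figure D4:**
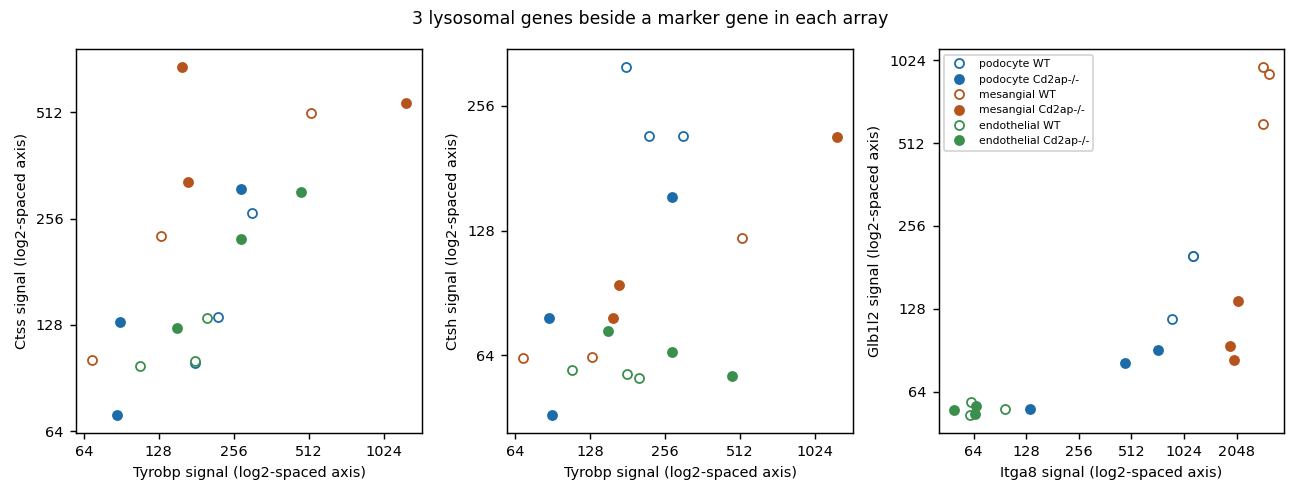
Signals of Ctss and Ctsh against Tyrobp and of Glb1l2 against Itga8 in 18 arrays, on log2-spaced axes, wildtype open and Cd2ap-/- filled. Mesangial arrays with Itga8 of 1886 to 3126 had Glb1l2 of 83.8 to 136 in mutants and 599 to 968 in wildtype, and wildtype podocytes had Ctsh of 216 to 318 with Tyrobp of 178 to 302.

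By role, the cathepsins tested ranged in genotype difference from -1.58 to 0.08 in podocytes, from -0.28 to 1.12 in mesangial cells and from 0.10 to 0.90 in endothelial cells. Other hydrolases ranged from -1.17 to 0.30 in podocytes and from -2.98 to 0.24 in mesangial cells, with *Glb1l2* the lowest in both, and from -0.07 to 0.46 in endothelial cells. The 8 membrane proteins tested ranged from -0.24 to 0.40 in podocytes and from -0.15 to 0.40 in mesangial cells, and only *Cd63* in endothelial cells passed the screen among them. The 4 tested genes of lipid transport and cofactors, *Psap*, *Npc1*, *Npc2* and *Grn*, ranged from -0.39 to 0.30 in podocytes, from -0.13 to 0.40 in mesangial cells and from 0.18 to 0.52 in endothelial cells. The 5 genes with TCACGTGA, all of them tested in each cell type, ranged from -0.48 to 0.28 in podocytes, from -0.32 to 0.04 in mesangial cells and from -0.08 to 0.47 in endothelial cells. The screen called 0 of them, against 5.61%, 5.19% and 3.82% of all transcript clusters in the same order, while *Gla* passed in podocytes without mutant array A and *Ctsd* in endothelial cells without wildtype array A.

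Whether the genotype effect itself differed between cell types was tested as an interaction in a fit of all 18 arrays, with 33 members among 13523 transcript clusters. The effect on *Glb1l2* differed between podocytes and mesangial cells by 1.82 on the log2 scale (SE 0.34, adjusted p = 0.0198) and between endothelial and mesangial cells by 2.97 (SE 0.34, adjusted p = 0.000277). Its genotype difference was -2.98 in mesangial cells and -1.17 in podocytes, and its endothelial signals stayed under 100 in both genotypes, at 53.3 to 56.9 and 52.7 to 58.9. The effect on *Ctso* differed between endothelial cells and podocytes by 0.97 (SE 0.19, adjusted p = 0.0237), with a genotype difference of 0.15 in endothelial cells and -0.82 in podocytes. The *Glb1l2* call for podocytes and mesangial cells was lost without array B of either mesangial group, with adjusted p values up to 0.0563. The *Ctso* call was lost in 4 of 25 alternatives, without endothelial mutant array A, endothelial wildtype array C or podocyte wildtype array A and after a repeat of quantile normalization, with adjusted p values up to 0.0675. Each is 1 of 33 members, or 3.03%, against 0.717%, 1.07% and 2.11% of all transcript clusters in the 3 tests. The effect on *Ctsh* differed by -2.15 between podocytes and mesangial cells (SE 0.56, adjusted p = 0.109) and by 1.75 between endothelial cells and podocytes (SE 0.56, adjusted p = 0.0906), which were not called.

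The third comparison set the cell types against each other in the arrays labelled mutant, which are separate from those of the wildtype comparison. Their genotype rests on the labels and column names, and endothelial *Cd2ap* was not lower in them. *Cd63* was again far lower in endothelial cells and *Ctsl* was again higher in podocytes than in mesangial cells. *Ctsl* in podocytes, at 1537 to 1719, overlapped endothelial cells at 1294 to 1568, a log2 difference of 0.22 (SE 0.11, adjusted p = 0.137). In mutants *Ctsh* was 154, 78.7 and 45.9 in podocytes, 94.5, 215 and 78.8 in mesangial cells and 57.1, 65.1 and 73.3 in endothelial cells, so podocytes overlapped both other cell types, and mesangial cells lay above endothelial cells. The difference of podocytes from mesangial cells was -0.51 (SE 0.45, adjusted p = 0.413), against 1.64 in wildtype, a change that the interaction test did not call. *Glb1l2* differed between mutant podocytes and mesangial cells by -0.46 (SE 0.21, adjusted p = 0.131), against -2.28 in wildtype, a change in the difference that the interaction test above called.

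Against mesangial cells, mutant podocytes were higher in 1 member, *Ctsl*, by 0.94 (SE 0.11, adjusted p = 0.00031), or 3.03% of 33 against 6.35% of 13063 transcript clusters. They were lower in 6, or 18.2% against 12.1%, led by *Ctsk* with -2.44 (SE 0.28), *Ctss* with -1.80 (SE 0.51) and *Ctso* with -1.38 (SE 0.14). *Scarb2*, *Asah1* and *Hexa* followed with -1.06, -1.05 and -0.69. The calls of *Ctss* and *Hexa* were lost in 5 of 17 alternatives each, without mesangial array B or C, podocyte array B or C, or the signal minimum, with adjusted p values up to 0.0906 and 0.0955. Against endothelial cells, mutant podocytes were higher in 1, *Cd63*, by 3.22 (SE 0.28, adjusted p = 1.93e-05), or 3.03% against 9.52%, and lower in 4, *Ctso*, *Man2b1*, *Gusb* and *Ctsz*, or 12.1% against 20.5%. *Man2b1* and *Gusb*, the lysosomal alpha-mannosidase and beta-glucuronidase, had log2 differences of -0.83 (SE 0.21) and -0.75 (SE 0.11). Mutant mesangial cells were higher than endothelial cells in 6, *Cd63*, *Ctsk*, *Glb1l2*, *Scarb2*, *Hexa* and *Asah1*, or 18.2% against 7.11%, and lower in 3, *Ctsd*, *Man2b1* and *Ctsl*, or 9.09% against 10.2%. Against endothelial cells, mesangial *Hexa* lost its call in 7 of 17 alternatives, without any 1 endothelial array or mesangial array B or C among them, *Man2b1* in 4, without endothelial array A or B or mesangial array A or C, and *Asah1* in 2, without array B of either cell type. Podocyte *Ctsz* lost its call in 3, without endothelial array A or podocyte array B or after a repeat of quantile normalization. Without podocyte array A the counts of called members rose from 7 to 12 against mesangial cells and from 5 to 8 against endothelial cells, while calls over all transcript clusters rose from 18.5% to 23.5% and from 30.0% to 33.9%.

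**Figure D5:**
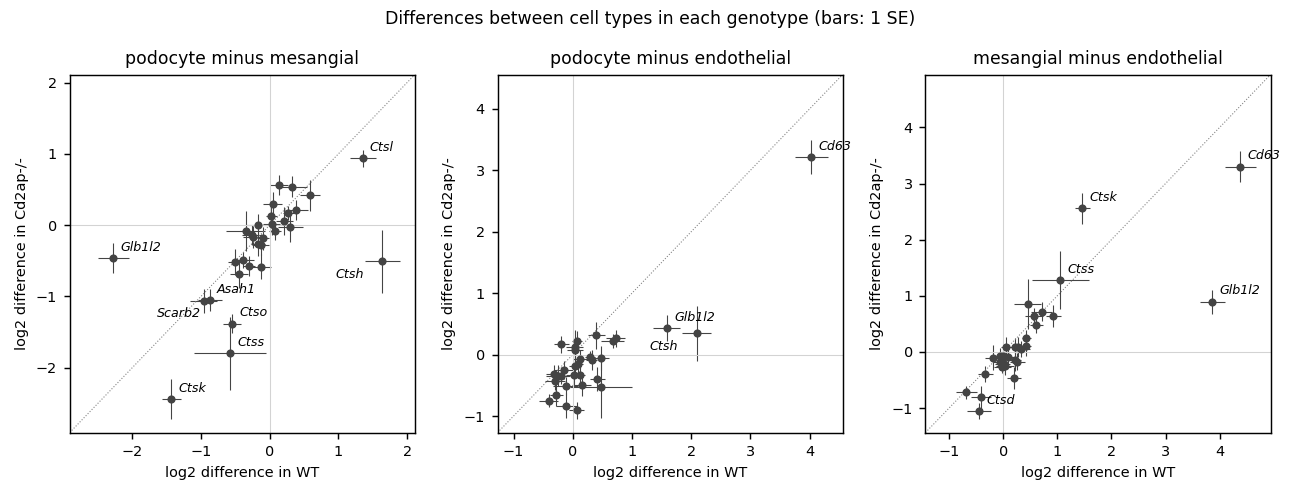
Log2 difference between cell types in arrays labelled Cd2ap-/- (vertical) against the same difference in wildtype arrays (horizontal) for each lysosomal gene tested in both, with bars of 1 SE and the line of equality dotted. Most points lie near the line, and Glb1l2 lies at -2.28 in wildtype and -0.46 in mutants in the left panel, where Ctsh lies at 1.64 and -0.51.

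Genes of the lysosome outside these 38 were read from 5 lists. Of 41 further hydrolases, 31 were tested in podocytes with 1 higher and 4 lower by the screen, 29 in mesangial cells with 1 higher and 28 in endothelial cells with 2 higher. Of all transcript clusters 1.26% were higher and 4.34% lower in podocytes, and 2.08% and 2.96% were higher in the other two. The podocyte count of 5 ran from 1 without mutant array B to 8 without mutant array A, and was 3 without mutant array C or wildtype array C. In podocytes *Aga*, which cleaves asparagine-linked glycans, and the acid lipase *Lipa* were lower, with log2 differences of -0.74 (SE 0.28, adjusted p = 0.303) and -0.73 (SE 0.29, adjusted p = 0.325), while the thiol reductase *Ifi30* was higher by 0.71 (SE 0.22, adjusted p = 0.229). *Galc*, which removes galactose from galactosylceramide, was also lower, at 503, 475 and 698 against 870, 766 and 913, a log2 difference of -0.62 (SE 0.18, adjusted p = 0.209). The call of *Aga* was lost in 4 of 15 alternatives, without mutant array B or C or wildtype array A or C, and that of *Lipa* in 5, without mutant array B or C, wildtype array A or B, or the signal minimum. That of *Ifi30* was lost without mutant array A. With 1 array left out, *Galc* fell under 1.5-fold without mutant array A or B or wildtype array C. In mesangial cells the asparaginyl endopeptidase *Lgmn*, which processes cathepsins, was higher by 0.72 (SE 0.29, adjusted p = 0.216), a call lost in 5 of 15 alternatives, without mutant array A or C, wildtype array A or B, or the signal minimum. In endothelial cells labelled mutant the carboxypeptidase *Prcp* was higher by 1.23 (SE 0.31, adjusted p = 0.115). The hyaluronidase *Hyal1* was 286, 311 and 259 there against 199, 166 and 189, higher by 0.63 (SE 0.11, adjusted p = 0.0418), and fell under 1.5-fold without mutant array B or wildtype array B, after a repeat of quantile normalization and with a pseudocount of 32. The median of the 28 hydrolases in endothelial cells was 0.28 against 0.07 over all transcript clusters, in the same direction as the members.

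The lists of membrane proteins, proton pump subunits and cathepsin inhibitors held 0 calls by genotype in any cell type, with 18 to 22, 20 to 22 and 4 to 5 genes tested. The 0 did not hold in every alternative. In podocytes 1 proton pump subunit was lower in 6 of 15 alternatives, among them the fits without mutant array A or C, and 1 or 2 membrane proteins were called in 4 of 15, with 2 without mutant array A. In endothelial cells 1 proton pump subunit was higher in 3 of 15, among them the fits without mutant array A or wildtype array A. A membrane protein was higher in mesangial cells without mutant array B, and an inhibitor in endothelial cells with no signal minimum. In the list of sorting and control, 1 gene was called, the sorting receptor *Sort1*, lower in mutant podocytes with a log2 difference of -0.72 (SE 0.18, adjusted p = 0.183), at 76.1, 79.5 and 115 against 163, 137 and 140, and under 1.5-fold with a pseudocount of 32. Between wildtype cell types the lists held larger differences. *Galc* was 766 to 913 in podocytes, 108 to 228 in mesangial cells and 88.9 to 116 in endothelial cells, a log2 difference of podocytes of 2.43 (SE 0.23, adjusted p = 6.04e-05) and 3.06 (SE 0.23, adjusted p = 9.77e-06). The proton pump subunits *Atp6v0c* and *Atp6v0a1* were higher in podocytes than mesangial cells by 1.05 (SE 0.24) and 0.96 (SE 0.11), and the channel *Tpcn1* by 0.80 (SE 0.13). *Tfec*, a relative of *Tfeb*, was 248 to 368.7 in mesangial cells, 57.5 to 133 in podocytes and 30.2 to 40.0 in endothelial cells. The cysteine protease inhibitor *Cst3* was higher in mesangial than endothelial cells by 0.79 (SE 0.08, adjusted p = 5.28e-05).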

How the data were processed

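RNA of sorted cells was profiled on 18 arrays, Affymetrix Mouse Gene ST by the file header and the study's methods, where the series' design text names exon arrays and GeneBASE. Per the labels, the authors computed the deposited intensity values by RMA, which corrects background, equalizes array distributions by quantiles and summarizes probes. The table holds 1 linear signal per transcript cluster and array, and 18 further columns, which hold the log2 of that signal minus its median over the arrays, were not used. Depth has no meaning for arrays, and the 3 arrays of a group limit the precision. Arrays of a group are called A, B and C as names only.

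Groups followed the sample labels. Log2 signals were fitted with limma 3.58.1 in R 4.3.3 and tested over every transcript cluster that reached 100 in any array compared. Genotypes were compared over 6 arrays, cell types over 9 and interactions over 18. Genotype calls used a screen modelled on the study's methods, which name no adjustment, with more than 1.5-fold at a p under 0.05 taken as unadjusted, and cell type calls an adjusted p under 0.05 and the same fold change. Each gene was represented by the cluster that carries its symbol alone, or the highest mean signal. Windows around start sites came from RefSeq and were searched in Python 3.11.15. The members, lists and tests were chosen with earlier results of these data known. The fits were tested on simulated data. All members and *Cd2ap* were named, and from each other list up to 3 genes called by genotype and up to 2 each way between wildtype cell types, of which some are not printed. Alternatives covered the signal minimum, scaling, pseudocount of 32, eBayes setting, array weights, joint fit, cluster choice and each array left out. RNA-seq was not used here. Some items are not reported here.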

Additional observations from a re-analysis of the deposited data

Results flagged for a closer look

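The difference between mutant and wildtype was itself different between cell types, by the interaction test in limma over 18 arrays, for 4 gene and cell type pairs. Of all 13523 transcript clusters 0.717% were called for podocytes and mesangial cells and 1.07% for endothelial and mesangial cells. For endothelial cells and podocytes 2.11% were called. For *Glb1l2* the effect in podocytes minus that in mesangial cells was 1.82 (SE 0.34, adjusted p = 0.0198). For the same gene the effect in endothelial minus mesangial cells was 2.97 (SE 0.34, adjusted p = 0.000277), where endothelial signals were under 100 in both genotypes. For *Ctso* the effect in endothelial cells minus that in podocytes was 0.97 (SE 0.19, adjusted p = 0.0237). For the acid lipase *Lipa*, from the list of further hydrolases, it was 1.26 (SE 0.31, adjusted p = 0.0498), with signals of 567, 442 and 480 in endothelial arrays labelled mutant against 360.0, 321 and 343, and of 193, 90.5 and 95.3 in mutant podocytes against 223, 200.1 and 169.9. Marker sums of other cells also differed between mutant and wildtype podocytes, and their part in these values was not tested. *Lipa* was the 1 gene called of 32 further hydrolases in the test of endothelial cells and podocytes. Its interaction was not followed through the alternatives, and calls over all transcript clusters in that test fell to 0.571% after a repeat of quantile normalization.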

How the results depend on the processing

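No paired analysis was possible because the labels number the samples through the series and share no replicate number between groups. Counts of called members in the 3 genotype comparisons were 2 in mesangial cells, 3 in podocytes and 2 in endothelial cells. With 1 array left out they ran from 2 to 4, from 3 to 5 and from 0 to 3. The endothelial count was 1 with an intensity trend and robust estimation and 1 in a fit of all 18 arrays. Members called between mutant podocytes and mesangial cells ran from 6 to 12, and between mutant podocytes and endothelial cells from 4 to 8, with 1 array left out. In the interactions the count for podocytes and mesangial cells was 2 with a signal of 100 in all 3 arrays of a group, 2 after a repeat of quantile normalization and 0 to 4 with 1 array left out. For endothelial cells and podocytes it was 4 after subtraction of array medians, 0 after a repeat of quantile normalization and 0 to 7 with 1 array left out, with 7 without podocyte mutant array A. Calls over all transcript clusters moved the same way, from 2.11% to 7.24%, 0.571% and, without that array, 13.8%. For endothelial and mesangial cells it was 3 with array weights, *Ctsk* and *Gla* beside *Glb1l2*, where calls over all rose from 1.07% to 6.7%. Differences near 0 changed sign, *Ctso* in mesangial cells to -0.00729 with array medians subtracted, -0.00708 with array weights and -0.0704 to 0.0550 with 1 array left out, and *Ctsl* in podocytes from -0.104 to 0.00932. Followed through the alternatives were 66 values, those of members called in a comparison and some genotype values besides. The latter were of *Ctsl*, *Ctsh*, *Ctso* and *Cd2ap* and, from other lists, of *Lgmn*, *Aga*, *Lipa*, *Ifi30*, *Prcp*, *Hyal1* and *Sort1*. The genotype value of *Galc* was not among the 66. Of the 66 values 42 kept call and direction in every alternative, 21 lost the call in at least 1, 1 gained it and 2 changed sign. Among other members, by genotype, *Grn* passed the screen in endothelial cells with array medians subtracted and *Ctss* in mesangial cells with array weights. With 1 array left out *Hexa* and *Gla* passed in podocytes, *Ctss* and *Scarb2* in mesangial cells and *Grn*, *Ctsd* and *Man2b1* in endothelial cells. *Glb1l2* and *Ctsk* in mesangial cells and *Ctsh*, *Glb1l2* and *Ctso* in podocytes kept theirs in all 15, with adjusted p values from 1.95e-06 to 0.52, while *Ctss* kept its call in 12 of 15 and *Cd63* in 11 of 15 in endothelial cells. Subtraction of array medians moved the median of all transcript clusters between mutant podocytes and endothelial cells from -0.11 to -0.26, and from 0.11 to 0.22 in the interaction of endothelial cells and podocytes. Higher calls were 77.4% of all calls in endothelial cells by genotype, 87.8% with medians subtracted and 65.4% after a repeat of quantile normalization. In podocytes they were 22.5% and 33.1% after that repeat. They went from 34.4% to 24.4% and 44.4% between mutant podocytes and mesangial cells, and from 31.7% to 21.3% and 46.0% between mutant podocytes and endothelial cells. In the interactions of mesangial cells with podocytes and with endothelial cells they were 28.9% and 66.2%, and 47.6% and 53.6% after the repeat.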
